A study of Mus musculus with 8 samples.

Results

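Ly6a, Ly6c1, Ly6c2, Ly6e and Ly6g5b, members of the Ly6 family, and Plac8 were followed in conventional CD4 T cells from the inflamed brain and spinal cord of mice. These 6 genes of the 32285 in the count tables were picked by symbol, with their levels, their shares of positive cells and their relation to 3 surface antibodies in these libraries already known, so all such values are descriptions. The cells came from Foxp3-Cre-YFP mice, whose regulatory T cells are marked by a reporter, in which EAE (experimental autoimmune encephalomyelitis), a model of multiple sclerosis, had been induced by immunization. There were 4 groups, named here by the day after immunization: day 50 cord and day 14 cord (spinal cord), and day 50 brain and day 14 brain (brain without its meninges). In all of them the sorted cells were CD4 positive, CD44 positive, TCRβ positive, CD11b negative and negative for the Foxp3 reporter. Each group was 1 droplet library of RNA and antibody tags, and the labels give neither the number of mice behind it nor their age. Unimmunized mice are not among the samples analysed here. With 1 library a group there was no test across animals, no p-value is given, and every interval covers counting error only.

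Ly6 proteins are small surface proteins with a disulfide-bonded fold known as the three-finger or LU domain, and most are held in the membrane by a glycosylphosphatidylinositol (GPI) anchor. Several are induced by interferons in lymphocytes: Ly6a is the stem cell antigen Sca-1 and rises on activated T cells, and Ly6e is a close relative known for its effects on virus entry. Ly6c1 and Ly6c2 encode the Ly6C antigen, which marks monocyte subsets and also effector and memory T cells. Ly6g5b is a little-studied family gene of the major histocompatibility complex region. Plac8 is unrelated by sequence: it encodes a small cysteine-rich protein of immune and epithelial cells and is induced in activated T cells.

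The libraries kept 1605 cells in day 50 cord, 9270 in day 14 cord, 333 in day 50 brain and 10313 in day 14 brain. They held 6017616, 50710551, 1115291 and 47272714 RNA UMIs (unique molecular identifiers, 1 per captured molecule) in that order, with medians of 3467, 4921, 2950 and 4004 per cell. Day 50 values in brain are therefore the least precise, and 3 UMIs there equal 2.69 CPM (a gene's UMIs scaled to the library total, the usual unit for comparing libraries of unequal depth). Pairs of libraries shared between 0 and 33 cell barcodes, at most 0.601% of the smaller library. The summed level of 10 CD4 T cell markers lay between 7221 and 7419.5 CPM in all 4 libraries. Markers that define other cells were at or near 0: Cldn5 and Kdr of endothelium had no UMI in any library, and Ly6g of neutrophils had 1 UMI in all. The monocyte list of 10 genes summed to 125 CPM in day 50 cord, 233 in day 14 cord, 144 in day 50 brain and 174 in day 14 brain. Most of that sum was Ccr2, which T cells also use, while Csf1r had 0, 8, 0 and 1 UMIs. The dendritic cell list summed to 102 CPM in day 50 brain against 10.8 CPM in day 50 cord, 14.99 in day 14 cord and 14.4 in day 14 brain. Beside its effect on calls when cells with 2 or more UMIs of such markers were left out, the part of these cells in the results was not tested.

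Ly6e, Ly6a, Ly6c1 and Ly6c2 lie within 157042 bases of chromosome 15 in GRCm38.p6, the patched form of the mm10 build of the files. Ly6c1 (chr15:75044018-75048920) and Ly6c2 (chr15:75108161-75112066) are near copies, so reads could be split or lost between them. Ly6e is at chr15:74955025-74959904. Ly6g5b (chr17:35113944-35118558) overlaps Csnk2b, Ly6a (chr15:74994877-74998031) overlaps the noncoding gene Gm28068, and Plac8 is at chr5:100551589-100572253. The Ly6c pair is shown because the levels of these neighbours did not follow each other across the libraries. Each window runs from 250 bases before to 50 after a RefSeq start, on the minus strand (chr15:75048788-75049087 for Ly6c1 and chr15:75111922-75112221 for Ly6c2). Capitals mark bases that differ or have no partner in the alignment of the pair.
Ly6c1: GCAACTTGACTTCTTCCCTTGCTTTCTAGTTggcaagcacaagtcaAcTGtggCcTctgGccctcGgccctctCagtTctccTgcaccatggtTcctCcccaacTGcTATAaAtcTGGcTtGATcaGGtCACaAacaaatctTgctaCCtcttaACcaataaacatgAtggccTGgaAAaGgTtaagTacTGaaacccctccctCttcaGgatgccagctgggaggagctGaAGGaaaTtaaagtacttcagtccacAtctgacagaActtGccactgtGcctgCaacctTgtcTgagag
Ly6c2: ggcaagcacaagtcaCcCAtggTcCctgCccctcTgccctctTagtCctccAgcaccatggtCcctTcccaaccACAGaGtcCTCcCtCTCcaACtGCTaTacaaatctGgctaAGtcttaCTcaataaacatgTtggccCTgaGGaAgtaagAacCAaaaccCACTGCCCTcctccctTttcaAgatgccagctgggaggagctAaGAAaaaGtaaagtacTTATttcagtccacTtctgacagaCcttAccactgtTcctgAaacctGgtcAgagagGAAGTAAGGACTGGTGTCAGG
Of the aligned bases 208 were identical and 58 were not, an identity of 78.2%, with 92 capitals in each window. This is the likeness of the promoters, not of the transcript ends that the assay counts, which was not measured. Windows of Ly6c1, Ly6c2, Ly6g5b and Plac8, 8 in all, were searched on both strands for the interferon elements ISRE (GAAA repeated after any 2 bases) and GAS (TTCNNNGAA). None of these 8 held either. Of 32851 RefSeq windows of 300 bases, 3.44% held ISRE and 8.30% held GAS. At such shares 8 windows are too few to read anything from finding none, and those of each Ly6c gene overlap each other. Windows of Ly6a and Ly6e were not searched.

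Ly6a and Ly6e were the members found in most cells, and both were lower at day 50 than at day 14 in both tissues. Ly6a had 729 CPM in day 50 cord, 1238 in day 14 cord, 681 in day 50 brain and 1220.0 in day 14 brain. The day 50 libraries were thus close to each other and below both day 14 libraries. Ly6e followed the same order of days, with 510.3, 840.4, 519 and 826 CPM in the same sequence of libraries. To compare cells of unequal depth, each was thinned to 2000 UMIs. Ly6a was then found in 58.7% of spinal cord cells at day 50, against 79.9% at day 14 (exact binomial intervals 56.2 to 61.3 and 79.0 to 80.7), and in 59.1% of brain cells at day 50, against 79.5% at day 14 (52.5 to 65.4 and 78.7 to 80.3). Ly6e was in 59.7% of spinal cord cells at day 50, against 78.3% at day 14, and in 59.9% of brain cells at day 50, against 76.9% at day 14. Without thinning Ly6a was in 69.1% of cells in day 50 cord, 92.9% in day 14 cord, 64.3% in day 50 brain and 88.7% in day 14 brain, and Ly6e in 75.3%, 94.8%, 67.9% and 90.2%. The order of days was therefore the same with and without thinning. The amount in positive cells was also lower: they held a mean of 2.42 Ly6a UMIs in day 50 cord, against 3.22 at day 14, and 2.27 in day 50 brain, against 3.13 at day 14. No cell type that should lack these genes was present to measure free RNA against.

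Ly6c2 and Ly6c1, the genes of the Ly6C antigen, did not move together. Ly6c2 had 152 CPM in day 50 cord, 150.0 in day 14 cord, 108 in day 50 brain and 219 in day 14 brain. Only the brain libraries were far apart, and the spinal cord libraries lay between them. Thinned cells with Ly6c2 made up 10.0% in day 50 cord, against 14.1% at day 14, so the share was lower although the CPM was not, and no order of these libraries is read from it. In brain it was 8.44% at day 50 (5.23 to 12.7), against 16.6% at day 14 (15.8 to 17.4). Positive cells held a mean of 2.97 Ly6c2 UMIs in day 50 cord, against 2.24 in day 14 cord, and 2.40 in day 50 brain, against 2.88 in day 14 brain. The 2 cells richest in Ly6c2 gave 5.69% of its UMIs in day 50 cord and 25.0% of its 120 UMIs in day 50 brain. Ly6c1 was rare, with 93 UMIs in day 50 cord, 195 in day 14 cord, 8 in day 50 brain and 365 in day 14 brain. These amount to 15.5, 3.85, 7.17 and 7.72 CPM, so the highest level was in day 50 cord and the lowest in day 14 cord. It was found in 2.03% of thinned spinal cord cells at day 50 (1.37 to 2.89), against 0.668% at day 14 (0.512 to 0.858). Of its UMIs in day 50 cord, 20.4% came from 2 cells. Without thinning Ly6c2 was in 13.3% of cells in day 50 cord, 20.5% in day 14 cord, 9.61% in day 50 brain and 21.6% in day 14 brain, and Ly6c1 in 2.99%, 1.22%, 2.10% and 2.34%.

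Plac8 was lower at day 50 in both tissues and lowest in brain. It had 224 CPM in day 50 cord, 422 in day 14 cord, 80.7 in day 50 brain and 433 in day 14 brain. The day 14 libraries were alike, and the day 50 libraries were below them and apart from each other. Thinned cells with Plac8 made up 17.6% in day 50 cord (15.7 to 19.6), against 31.3% at day 14 (30.3 to 32.2). In brain they made up 6.75% at day 50 (3.91 to 10.7), which is 16 of 237 cells, against 27.1% at day 14 (26.2 to 28.0). Without thinning the shares were 21.6% in day 50 cord, 41.3% in day 14 cord, 10.5% in day 50 brain and 32.9% in day 14 brain.

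Ly6g5b was highest in day 14 cord. It had 9.31 CPM in day 50 cord, 55.6 in day 14 cord, 17.9 in day 50 brain and 29.8 in day 14 brain. The brain value at day 50 rests on 20 UMIs, of which 35.0% came from 2 cells. Thinned cells with Ly6g5b made up 1.56% in day 50 cord, against 9.08% at day 14, and 1.69% in day 50 brain, against 5.32% at day 14. Without thinning they were 3.12% in day 50 cord, 20.7% in day 14 cord, 4.204% in day 50 brain and 10.2% in day 14 brain. Csnk2b, the overlapping gene for the regulatory subunit of casein kinase 2, had 169.5 CPM in day 50 cord, 309 in day 14 cord, 176 in day 50 brain and 252 in day 14 brain. Both genes were thus highest in day 14 cord, and the part of shared reads in the Ly6g5b counts was not tested. The correlation of the pair across cells was between -0.0017 and 0.078 in the 4 libraries.

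**Figure D1:**
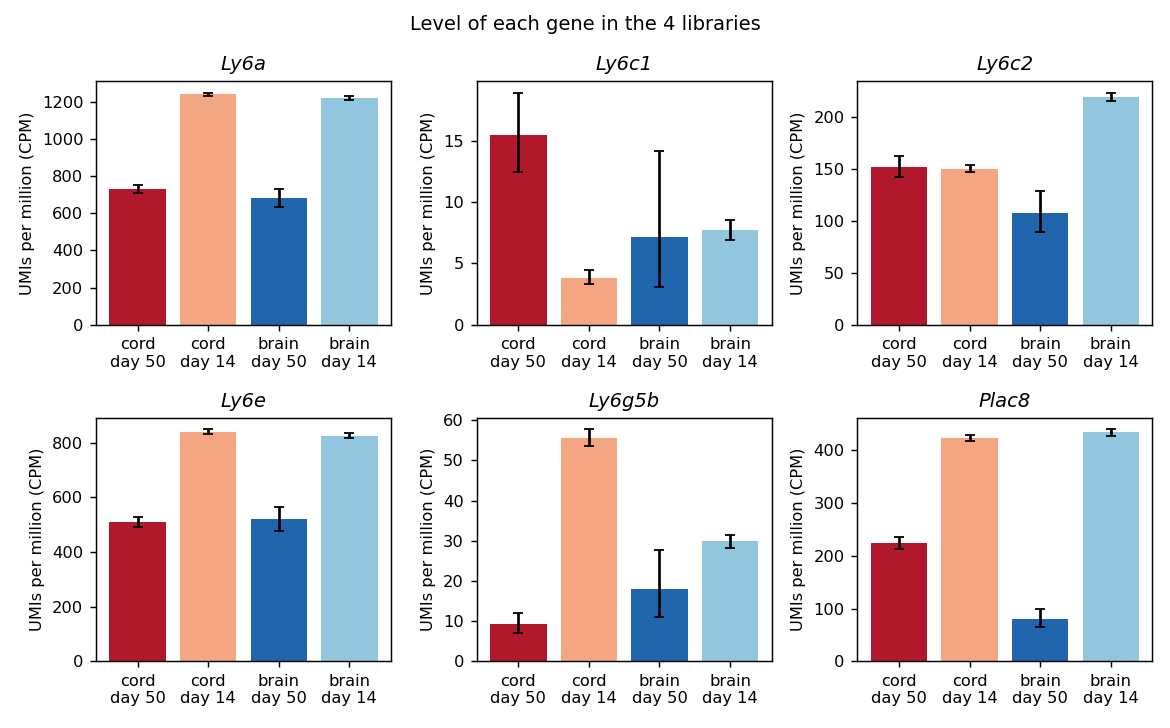
CPM of each gene (y axis, linear from 0) in the spinal cord libraries of day 50 and day 14 and the brain libraries of day 50 and day 14 (x axis), 1 library each, with exact Poisson 95% intervals as error bars. Ly6a, Ly6e and Plac8 are lower at day 50 in both tissues, while Ly6c1 is highest in day 50 cord with 15.5 CPM.

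**Figure D2:**
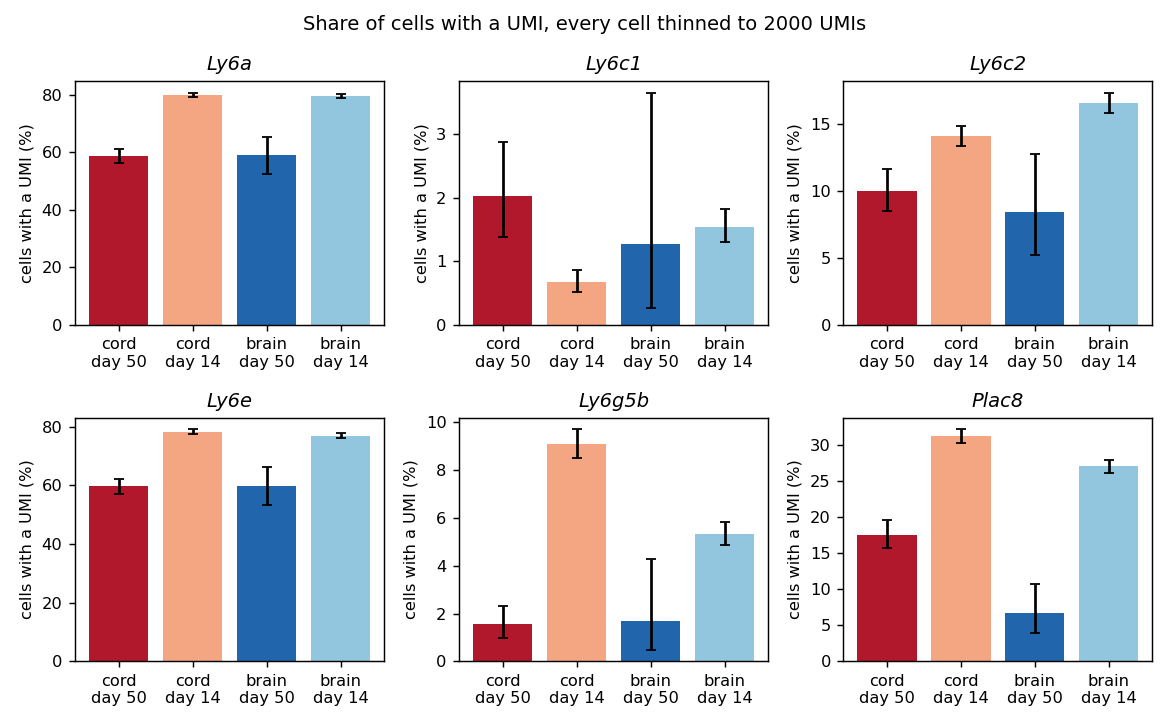
Share of cells with at least 1 UMI of each gene (y axis, percent) in the same 4 libraries (x axis) in cells thinned to 2000 UMIs; error bars are 95% Clopper-Pearson intervals. The wide bars of day 50 brain reflect its 237 thinned cells.

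Ratios between libraries put these levels on one scale. A gene was called where its ratio was at least 1.5-fold and its exact interval excluded 1, among genes with at least 10 UMIs in the pair. The comparisons share libraries and are not independent, and the members were chosen with these contrasts known. In day 50 brain against day 14 brain, 5 of the 6 genes were called lower and none higher, where 5.47% of 12802 genes were called lower and 5.08% higher. The log2 ratio was -2.42 for Plac8 (-2.74 to -2.13), -1.03 for Ly6c2 (-1.30 to -0.77), -0.84 for Ly6a, -0.74 for Ly6g5b and -0.67 for Ly6e. The value of Ly6c1 was -0.11 with an interval of -1.33 to 0.89, which 8 UMIs at day 50 leave wide. Plac8 stood at the 0.469 percentile of all genes compared.

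In day 50 cord against day 14 cord, 4 genes were called lower and 1 higher, where 23.7% of 13170 genes were called lower and 6.74% higher. The median log2 ratio of all genes was -0.30 in this pair, so values relative to it are given as well. Ly6g5b had -2.58 (-2.99 to -2.20), or -2.28 relative to the median, and Plac8 had -0.92, or -0.61 relative. Ly6a had -0.76 and Ly6e -0.72; relative to the median these were -0.46 and -0.42, and both calls were lost. Ly6c1 was 4.02-fold higher at day 50 (3.10 to 5.17), a log2 ratio of 2.01, or 2.31 relative. Ly6c2 had 0.02 (-0.08 to 0.12), or 0.32 relative, and was not called either way. Relative to the median, 2 members were lower and 1 higher, where 11.3% of all genes were lower and 12% higher.

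Between tissues, Ly6a and Ly6e hardly differed on either day. In day 14 cord against day 14 brain their log2 ratios were 0.02 and 0.03, and -0.18 and -0.17 relative to the median of all genes, which was 0.20. At that day Ly6g5b was called higher in spinal cord, at 0.90 (0.81 to 0.99) or 0.70 relative, and Ly6c1 lower, at -1.01 (-1.26 to -0.75) or -1.21 relative. Of all 13868 genes 14.7% were called higher and 3.66% lower. Ly6c2 had -0.55 and was not called, but relative to the median its -0.75 was, where 6.4% of all genes were called higher and 6.24% lower on that scale. Plac8 had -0.04, or -0.24 relative. In day 50 cord against day 50 brain, Plac8 was called higher at 1.47 (1.16 to 1.80), Ly6c1 higher at 1.11 (0.07 to 2.36) and Ly6g5b lower at -0.95 (-1.71 to -0.13), where 2.56% of 10279 genes were called higher and 4.31% lower. The last 2 rest on 8 and 20 brain UMIs, and both calls were lost when the 2% of cells with most UMIs were left out (0.96 for Ly6c1 and -0.28 for Ly6g5b). Ly6a had 0.10 (-0.01 to 0.21), Ly6e -0.02 (-0.15 to 0.11) and Ly6c2 0.50 (0.22 to 0.78) at day 50, none of them called.

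**Figure D3:**
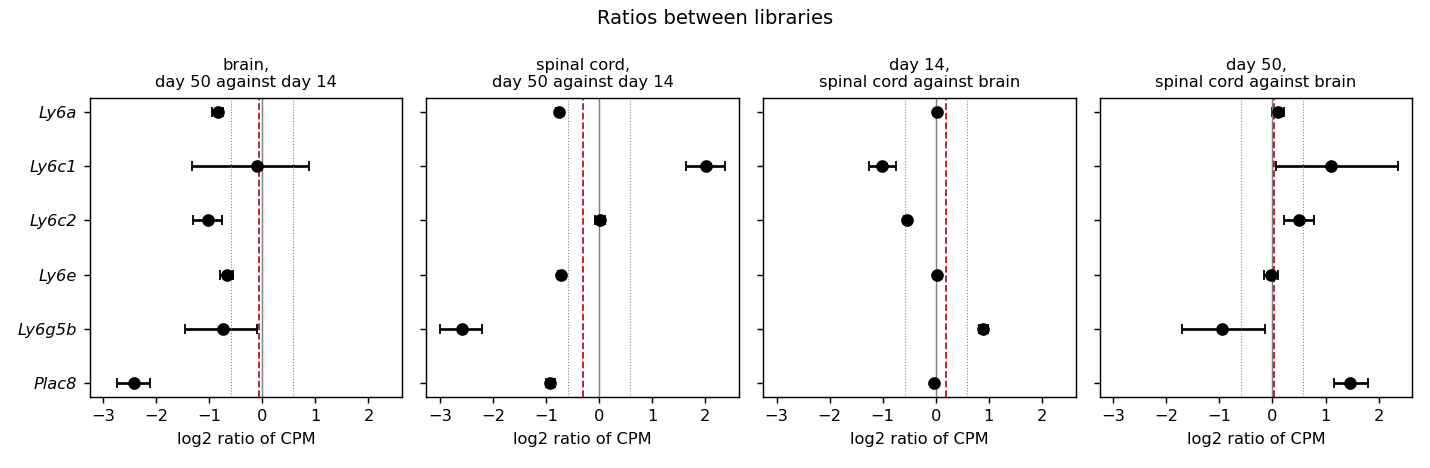
Log2 ratio of CPM for each gene (x axis) in the 4 comparisons (panels), with exact conditional binomial 95% intervals; dotted lines mark 1.5-fold and the dashed line the median of all genes compared. Plac8 in brain (-2.42) and Ly6g5b in spinal cord (-2.58) lie farthest below 0, and Ly6c1 in spinal cord (2.01) lies above it.

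CD69, P2X7R and CXCR6, surface proteins used to mark tissue-resident T cells, were counted with antibodies on the same cells. Within each library the third of cells with most antibody was set against the third with least. Tied counts made these classes unequal in size. By CD69 in day 14 brain, 3945 cells with at least 6 counts were set against 4370 with at most 3. Antibody counts were low in day 50 brain, with medians of 1 for CD69, 1 for P2X7R and 3 for CXCR6. There the 118 cells with least CD69 had 0 counts, so its classes are hard to compare with those of other libraries. Cells with most antibody also held more RNA: by CD69 in day 14 cord their median was 5630.5 UMIs, against 4352 in cells with least, so the same classes were also drawn within 4 bins of RNA UMIs and from the antibody count per RNA UMI. The results below are descriptions within single libraries, since the members were chosen with these relations known.

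Plac8 was higher in cells with more CXCR6 in all 4 libraries. It had 313 CPM in the third with most CXCR6, against 71.9 in the third with least, in day 50 cord. The pairs were 454 against 341 CPM in day 14 cord, and 548 against 192 in day 14 brain. In day 50 brain it had 77 UMIs against 1, so its ratio has an interval of 3.45 to 11.29 on the log2 scale. The log2 ratios in the other libraries were 2.12, 0.41 and 1.51, and within depth bins 1.36, 0.20 and 0.82. Plac8 was also higher with CD69 at day 50, at 1.68 in spinal cord and 1.72 in brain, and had 0.25 in day 14 cord and 0.54 in day 14 brain. Within depth bins it had 1.33 in day 50 cord, 0.83 in day 50 brain, -0.05 in day 14 cord and 0.32 in day 14 brain, so that of day 14 cord turned sign. With P2X7R, Plac8 reached 2.41 in day 50 cord and lay between 0.29 and 0.58 in the other 3 libraries. Within depth bins it had 1.73 in day 50 cord, 0.13 in day 14 cord, 0.72 in day 50 brain and 0.10 in day 14 brain, and with antibody per RNA UMI -0.09 in day 14 brain, so its sign there depends on the setting.

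Ly6c2 had a relation to the antibodies that differed between libraries. By CD69 it had 240.3 CPM in the third with most, against 89.1 in the third with least, in day 50 cord, but 86.5 against 206 CPM in day 14 cord. The log2 ratios were 1.43 (1.19 to 1.68) and -1.25 (-1.34 to -1.17), and within depth bins 1.49 and -1.03. Brain gave -0.05 at day 50 and -0.23 at day 14. By P2X7R Ly6c2 had 168 against 101 CPM in day 50 cord, 90.5 against 235 in day 14 cord and 128 against 329 in day 14 brain. These are log2 ratios of 0.73, -1.37 and -1.36, within depth bins 0.53, -1.40 and -1.36, the first of which is under 1.5-fold; in day 50 brain Ly6c2 had -0.33, and -1.03 within depth bins. By CXCR6 it was 1.38 in day 50 cord, 0.03 in day 14 cord, 2.12 in day 50 brain and 1.13 in day 14 brain, and within depth bins 0.88, 0.14, 1.01 and 1.24.

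By antibody count, Ly6g5b and Ly6c1 lay on opposite sides of 0, though not under every setting. Ly6g5b had a positive log2 ratio with each antibody in each library, between 0.12 and 1.84, and by CXCR6 it had 72.7 CPM in the third with most, against 29.3 in the third with least, in day 14 cord. In day 14 brain the pair was 40.6 against 11.3 CPM. Within depth bins it was below 0 in day 50 brain with CD69 (-0.45) and P2X7R (-0.61), on few UMIs, and in day 50 cord its 1.19 with CD69 and 1.73 with CXCR6 became 0.97 and 0.79, neither of them called. Ly6c1 was lower in the third with most CXCR6, with 34 UMIs against 119 in day 14 cord (log2 ratio -2.20, interval -2.79 to -1.64) and 68 against 204 in day 14 brain (-2.30, interval -2.71 to -1.89). In day 50 cord it had 25 UMIs against 28 (-0.58, interval -1.42 to 0.25) and was not called, and within depth bins it had -1.56. By CD69 it had -1.55 in day 50 cord, -1.33 in day 14 cord and -1.75 in day 14 brain, and in day 50 brain no UMI against 8. In day 14 cord this value was -0.59 within depth bins, -0.55 and not called with antibody per RNA UMI, and 0.16 between the 10% of cells with most and with least. With P2X7R the values of Ly6c1 were closer to 0, between -0.25 and -0.07 in the 3 libraries with enough UMIs, but in day 14 brain it had 0.45 within depth bins and 0.69 with antibody per RNA UMI. Outside day 50 cord, Ly6a and Ly6e lay between -0.06 and 0.50 with every antibody. In day 50 cord, Ly6a reached 0.73 with P2X7R and 0.79 with CXCR6, and Ly6e 0.58 with P2X7R. Within depth bins these were 0.49, 0.61 and 0.52, so that of Ly6a with P2X7R fell under 1.5-fold.

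By CD69, 3 members were called higher and 1 lower in day 50 cord, where 3.55% and 3.2% of all genes were. In day 14 cord the counts were 1 higher and 2 lower, where 7.64% and 3.81% of all genes were, in day 50 brain they were 1 higher and 0 lower (4.45% and 3.65%), and in day 14 brain 1 of each (5.42% and 2.92%). By P2X7R, 3 members were higher and 0 lower in day 50 cord (3.22% and 5.13% of all genes), 1 higher and 1 lower in day 14 cord (4.92% and 2.1%), none in day 50 brain (2.35% and 3.21%) and 0 higher and 1 lower in day 14 brain (3.23% and 1.74%). By CXCR6, 4 were higher and 0 lower in day 50 cord (4.14% and 4.29% of all genes), 1 higher and 1 lower in day 14 cord (2.98% and 4.14%), 2 higher and 0 lower in day 50 brain (4.1% and 4.49%), and 3 higher and 1 lower in day 14 brain (5.58% and 6.16%).

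**Figure D4:**
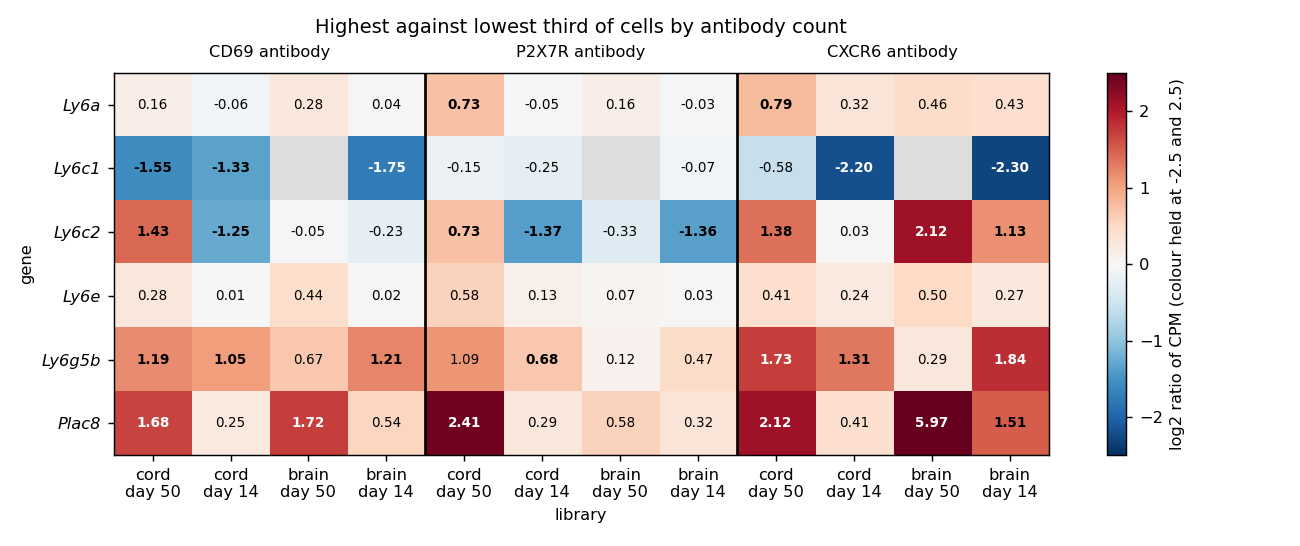
Log2 ratio of CPM of each gene (rows) between the third of cells with most and the third with least of each antibody, in the 4 libraries (columns); bold values passed 1.5-fold with an interval excluding 1, and grey boxes had under 10 UMIs. Ly6c2 is at 1.43 in day 50 cord and -1.25 at day 14 with CD69, and Ly6c1 is below 0 in every box with 10 or more UMIs.

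Members found in one cell were compared after thinning. Ly6a was found in 65.9% of cells with Ly6e, against 48.2% of cells without, in day 50 cord, and in 82.2% against 71.3% at day 14. In brain the pairs were 65.5% against 49.5% at day 50 and 81.5% against 72.7% at day 14, so the share was higher in cells with Ly6e in all 4 libraries. Plac8 was found in 41.2% of cells with Ly6c2, against 14.96% of cells without, in day 50 cord (33.2 to 49.6 and 13.1 to 17.0), and in 40.2% against 29.8% at day 14. In brain the pair was 10.0% of 20 cells against 6.45% at day 50, and 36.3% against 25.2% at day 14. Ly6c1 was in 0.699% of cells with Ly6c2, against 0.663% of cells without, in day 14 cord, and in 0.989% against 1.65% in day 14 brain, and both pairs of intervals overlapped. In day 50 cord the pair was 4.73% (7 of 148 cells) against 1.73%, and these intervals overlapped as well. Cells with no UMI of Ly6a, Ly6e, Ly6c2 or Plac8 made up 19.1% in day 50 cord, against 4.54% at day 14, and 18.6% in day 50 brain, against 4.58% at day 14.

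The genes most like a member were ranked by the mean Pearson r of log thinned counts over 3 libraries, among 5874 genes. Brain at day 50 was left out of the mean for its few cells, and Ly6c1 and Ly6g5b were too rare to rank. All r were weak and from sparse counts of cells that share a library, so they describe an order only. For Ly6a the first were Bst2 (r = 0.22), Ly6e (0.19), Isg15 (0.19), Tmsb10 (0.19) and Zbp1 (0.18); Bst2, Isg15 and Zbp1 are interferon-induced. For Ly6e they were Ly6a (0.19), Tmsb10 (0.12), H2-K1 (0.11), H2-D1 (0.10) and AW112010 (0.099), and H2-K1 and H2-D1 encode class I antigen-presenting molecules. For Ly6c2 they were Ms4a4b (0.17), Ms4a6b (0.16), Hopx (0.15), Ccl5 (0.14) and Nkg7 (0.14), of which the chemokine Ccl5 and the granule protein Nkg7 belong to cytotoxic and Th1 effector cells. Ccl5 had 0.052 in day 50 cord, 0.18 in day 14 cord and 0.20 in day 14 brain. In the same order Nkg7 had 0.038, 0.15 and 0.24, and Ms4a4b had 0.054, 0.21 and 0.26. Ms4a6b and Hopx had 0.15 and 0.14 in day 50 cord. For Plac8 the first were Ifitm3 (0.25), AA467197 (0.22), Ctsw (0.18), Tmsb4x (0.17) and Sh3bgrl3 (0.17). Ifitm3, an interferon-induced membrane protein, had log2 ratios at day 50 against day 14 of -1.94 in spinal cord and -1.85 in brain, and AA467197 had -2.43 and -1.65.

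Summed gene lists were then compared between thinned cells with and without a UMI of each member. The interferon response list of 29 genes summed to 3238 CPM in Ly6a cells, against 2206 in cells without, in day 50 cord, a log2 ratio of 0.55. The ratio was 0.60 in day 14 cord, 1.01 in day 50 brain and 0.76 in day 14 brain. Bst2 (tetherin) had 285 CPM in cells with Ly6a, against 149 in cells without, in day 50 cord, and 358 against 153 in day 14 brain. With Ly6e the same list gave 0.46 in day 50 cord, 0.30 in day 14 cord and 0.33 in day 14 brain.

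Ly6c2 cells held fewer Th17 transcripts in all 4 libraries. The list of 12 Th17 genes had log2 ratios of -0.96 in day 50 cord, -1.18 in day 14 cord, -2.78 in day 50 brain and -1.15 in day 14 brain, where the day 50 brain value rests on 20 Ly6c2 cells with 7 UMIs of the list. Il17a, the cytokine that names these cells, had 11.9 CPM in Ly6c2 cells, against 205 in cells without, in day 14 brain, and no UMI in Ly6c2 cells, against 112 CPM in cells without, in day 50 cord. The Th1 effector list gave 0.92 in day 14 cord and 0.89 in day 14 brain, but -0.29 in day 50 cord. Ccl5 weighed heavily in this sum: in day 50 cord cells without Ly6c1 it had 3952 CPM, against 974 for Nkg7. The -0.29 therefore need not hold for the other genes of the list. Ccl5 alone had 2462 CPM in Ly6c2 cells, against 832 in cells without, in day 14 cord, and 2571 against 4025 in day 50 cord.

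Ly6c1 cells held more transcripts of the list for recirculation and lymph node homing, at 0.80 in day 50 cord, 1.09 in day 14 cord and 1.05 in day 14 brain. The value of day 50 cord rests on 30 thinned Ly6c1 cells. In day 50 brain only 3 thinned cells held Ly6c1, with 18 UMIs of the list. Klf2, a transcription factor of recirculating T cells, had 1007 CPM in Ly6c1 cells, against 374 in cells without, in day 14 brain. In day 50 cord Klf2 had only 12 UMIs in Ly6c1 cells, at 0.85 (-0.12 to 1.67), while Il7r of the same list had 0.87 (0.37 to 1.32). Their sums of the Th1 effector list were lower, at -1.94 in day 50 cord, -0.89 in day 14 cord and -1.50 in day 14 brain. Ly6g5b cells went the other way on recirculation, with -0.64 in day 50 cord, -0.79 in day 14 cord and -1.02 in day 14 brain, and their Th17 sums were 2.15, 0.46 and 0.78 in these libraries. The day 50 value rests on 23 Ly6g5b cells. Plac8 cells had positive ratios for the effector migration list (0.31, 0.30 and 0.56) and negative ones for recirculation (-0.45, -0.46 and -0.81) in the same 3 libraries. Klf2 had 186 CPM in Plac8 cells, against 457 in cells without, in day 14 brain, and the migration gene S100a4 had 3516 against 2175.

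**Figure D5:**
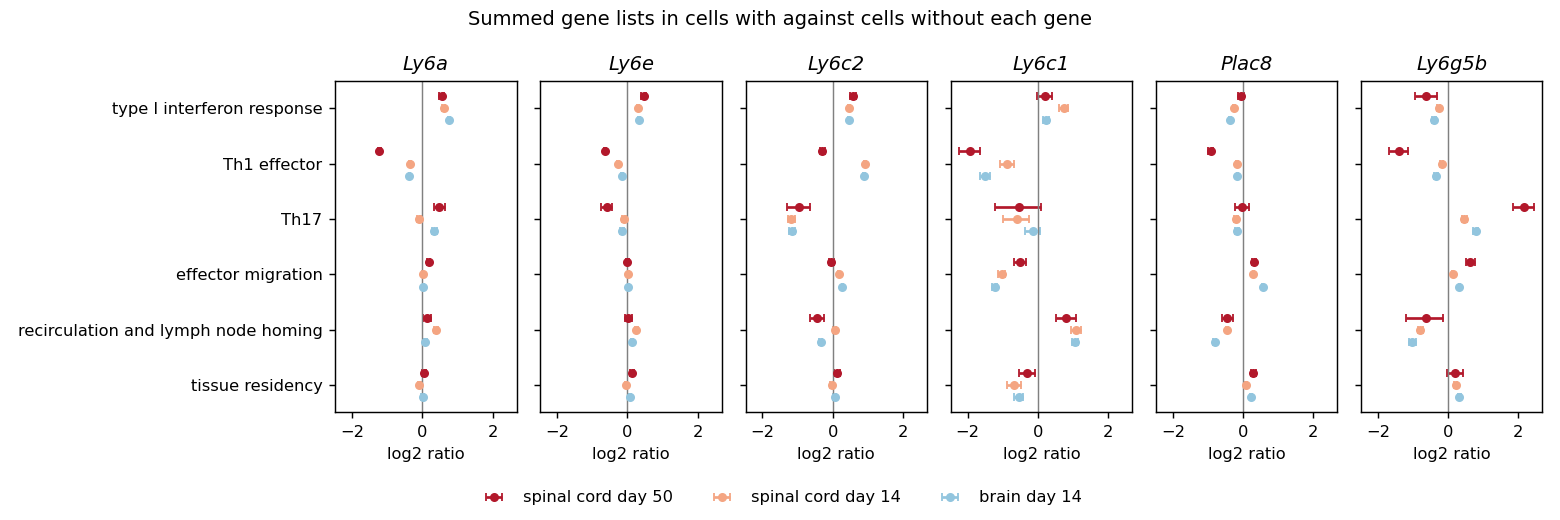
Log2 ratio of the summed counts of 6 gene lists (rows) between cells with and cells without a UMI of each gene (panels), in day 50 cord, day 14 cord and day 14 brain, with exact 95% intervals; day 50 brain is left out for its few cells. Ly6c1 lies right of 0 for recirculation (0.80 to 1.09) and Ly6c2 left of 0 for Th17 (-1.18 to -0.96).

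Other genes of the Ly6 and uPAR superfamily were nearly silent. Of a list of 38, 10 could be compared in brain over time, 11 in spinal cord over time, 12 between tissues at day 14 and 8 at day 50. Outside the members Ly6k had 13 UMIs in day 50 cord, 53 in day 14 cord, 2 in day 50 brain and 87 in day 14 brain, and Lypd6b had 14, 58, 2 and 64 in the same order. Plaur, the urokinase receptor, had 15, 6, 0 and 110. Lypd8 had 0, 41, 0 and 29, Ly6i 0, 13, 1 and 16, Lynx1 2, 11, 0 and 7, and Ly6m 1, 5, 0 and 8. Plac8l1, Plac9a, Plac9b and Cnfn, listed beside Plac8 by name or family, had no UMI in any library. Ly6k, Lypd6b and Plaur were called higher at day 50 in spinal cord, at log2 ratios of 1.05, 1.02 and 4.40, and Lypd8 was called lower, with no UMI at day 50. The superfamily list, members included, counted 4 lower and 0 higher in brain over time and 4 lower and 4 higher in spinal cord over time. Its median log2 ratios were -0.39 and 0.62. All genes lower in brain were members (Ly6a, Ly6c2, Ly6e and Ly6g5b), where 5.47% of all genes were lower and 5.08% higher. In spinal cord the members were Ly6a, Ly6e and Ly6g5b among the lower and Ly6c1 among the higher. Since 23.7% of all genes were lower and 6.74% higher in spinal cord over time, each list is also given relative to the median there, where 11.3% were lower and 12% higher. Relative to it the superfamily list had 2 lower and 4 higher, with a median of 0.92. Of the 27 genes that build and attach the GPI anchor, 2 were higher and 0 lower in brain over time and 3 higher and 6 lower in spinal cord (6 and 5 relative), with medians of -0.10 and -0.30 beside -0.06 and -0.30 for all genes. Dpm3, a subunit of the mannose donor synthase, was among the higher in both tissues, at 0.71 in brain and 0.70 in spinal cord. Among 13 other T cell surface glycoproteins 1 was lower and 4 higher in brain, and 3 lower and 2 higher in spinal cord (3 and 3 relative); Cd48, itself GPI-anchored, had -0.74 in brain and -1.01 in spinal cord.

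Of 27 interferon response genes compared at day 50 against day 14, 2 were higher and 1 lower in brain (median -0.03). In spinal cord 7 were higher and 2 lower (median 0.15), or 12 higher and 2 lower relative (median 0.45). Over time, 5.08% of all genes were higher and 5.47% lower in brain, and 6.74% and 23.7% in spinal cord (12% and 11.3% relative). The same shares stand beside the other lists compared over time below. Ifi27l2a had 1311 CPM in day 50 cord, against 629 at day 14, while Ly6a and Ly6e were lower there at day 50. Between tissues at day 14, 16 of the 27 were lower in spinal cord and none higher (median -0.82), where 3.66% of all genes were lower and 14.7% higher. Relative to the median of all genes 18 were lower (median -1.02), where 6.24% of all genes were lower and 6.4% higher. Bst2 had -0.91, beside 0.02 for Ly6a. At day 50, 7 of 25 interferon response genes were lower in spinal cord and none higher, where 4.31% of all genes were lower and 2.56% higher. Of 13 genes of interferon receptors and signalling, 1 was higher in brain over time, and 3 were higher and 3 lower in spinal cord (3 and 1 relative). The effector migration list was lower at day 50, with 8 of 16 genes lower and 1 higher in brain (median -0.59) and 13 lower and 0 higher in spinal cord (median -1.05, or 10 lower and -0.75 relative). S100a4, a calcium-binding protein of motile cells, had 1072 CPM in day 50 cord, against 3173 at day 14, and the galectin Lgals1 had 723 against 1979. Of 11 recirculation genes 1 was higher and 2 lower at day 50 in each tissue (1 and 1 relative in spinal cord); Klf2 was lower in spinal cord than in brain on both days, at -1.97 on day 50 and -1.28 on day 14. Of 12 Th17 genes, 5 were higher and 3 lower in brain over time and 1 higher and 6 lower in spinal cord (2 and 5 relative). Of 12 Th1 effector genes 2 were higher and 2 lower in brain, and 2 higher and 4 lower in spinal cord, a balance that turned to 4 higher and 2 lower relative to the median. Of 17 residency genes, 6 were higher and 0 lower in brain over time and 6 higher and 3 lower in spinal cord (8 and 3 relative).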

How the data were processed

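Single-cell RNA and antibody tags of CD69, P2X7R and CXCR6 were measured in 4 libraries, 1 per group. The deposited matrices hold raw UMI counts, per the file headers, made with Cell Ranger 6.1.1 on mm10, per the submitters' processing notes. The antibody features with the identifiers P2X7R and CXCR6 carry the names CD3_TotalA and CD16_TotalA, which are those of other proteins. The identifiers were used, since cells with the matching transcript had higher antibody medians in all 4 libraries. In day 14 cord these medians were 25 against 7 with P2rx7 and 26 against 9 with Cxcr6.

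A barcode was kept with 500 genes or more and 10% mitochondrial UMIs or less. Scrublet (scanpy 1.11.5), at an expected 0.8% of doublets per 1000 barcodes, called 15 barcodes in each day 50 library, which were removed; it called 0 in both day 14 libraries, where it is taken to have failed, so doublets may remain. Scrublet's calls varied with the random seed; the seed used was chosen after several had been run, because its calls equalled those of an earlier processing of these files, and ratios without doublet removal are among the alternatives. Counts were summed per library and scaled to CPM, with exact Poisson, conditional binomial (ratios) and Clopper-Pearson (shares) 95% intervals (scipy 1.17.1). The intervals cover counting error only. Genes with at least 10 UMIs in a pair were compared, and calls needed 1.5-fold. Shares, co-detection and list sums used cells thinned to 2000 UMIs (1478 cells in day 50 cord, 9128 in day 14 cord, 237 in day 50 brain and 9150 in day 14 brain), leaving out 127, 142, 96 and 1163 shallower cells. The ratio intervals were tested on simulated counts drawn independently (Poisson), as the intervals themselves assume. That test could not show how they hold where UMIs cluster in few cells.

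The members, the 11 gene lists and the markers were chosen with earlier results of these data known. Genes that could be named were the members, up to 4 genes per list with most UMIs, any detected superfamily gene, and for each member in at least 2% of cells the 5 genes with the highest mean r. Promoters and positions are from RefSeq (GRCm38.p6); no protein or transcript sequence was used. Alternatives covered the cell filter, doublets, scaling, thinning, the richest cells, marker-bearing cells, cycling cells and the antibody classes.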

Additional observations from a re-analysis of the deposited data

Results flagged for a closer look

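The relation of Ly6c2 to the antibodies had opposite signs in different libraries. Between the third of cells with most and the third with least CD69, its log2 ratio was 1.43 in day 50 cord and -1.25 in day 14 cord. With P2X7R it was 0.73 in day 50 cord, -1.37 in day 14 cord and -1.36 in day 14 brain. The difference between libraries was not tested.

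Ratios between tissues of 2 members changed sign with the day. For spinal cord against brain, Ly6c1 had 1.11 at day 50 and -1.01 at day 14, and Ly6g5b had -0.95 at day 50 and 0.90 at day 14. These differences were not tested either, and the day 50 values rest on 8 Ly6c1 UMIs and 20 Ly6g5b UMIs in brain. Brain at day 50 also had the highest summed level of dendritic cell markers, 102 CPM. Without cells holding 2 or more UMIs of other cell types' markers, the day 50 ratio was 0.87 for Ly6c1, whose call was lost, and -1.25 for Ly6g5b.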

How the results depend on the processing

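No paired analysis was possible because 1 library stands for each group, and no replicate could be left out. Of 288 alternative values for the 24 member ratios, 270 left the call unchanged, whether called or not, and 13 kept the direction and lost the call. A call was gained by 5, and 0 called ratios changed direction. The direction of uncalled ratios was not counted, and some turned. In day 14 cord against day 14 brain, Ly6a had 0.02 and Ly6e 0.03, but -0.18 and -0.17 relative to the median of all genes. Over the 4 comparisons 5 members were called in brain over time, 5 in spinal cord over time, 2 between tissues at day 14 and 3 at day 50. Relative to the median of all genes, 3 were called in spinal cord over time. At day 50 between tissues, 1 was called without the 2% of cells with most UMIs, with cells thinned before summing, and without cycling cells (a UMI of Mki67 or Top2a), Plac8 in each. There Ly6g5b had -0.28, -0.06 and -0.32 under these settings. The Ly6g5b call in brain over time was lost under a filter of 1000 genes and 5% mitochondrial UMIs (-0.55) and without cells holding markers of other cell types (-0.72). That exclusion left 1252, 4975, 259 and 7096 cells in day 50 cord, day 14 cord, day 50 brain and day 14 brain; with Ccr2 taken off the list, a choice made after seeing the data, it left 1439, 7865, 299 and 9089. Without all marker-bearing cells, 4 members were called in brain over time, 5 in spinal cord over time, 3 between tissues at day 14 and 2 at day 50.

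Of 271 alternative values for members against antibodies, 241 kept their call, 9 lost it, 20 gained one and 1 called value changed direction: Ly6c1 against CD69 in day 14 cord had 0.16 between the 10% of cells with most and with least, against -1.33 in the main classes; the cause was not tested. P2X7R gave 6 calls of 24, and 10 with antibody per RNA UMI and 11 with classes of 10%; the cause was not tested. CD69 gave 10 and CXCR6 12. Of 48 shares without thinning or thinned to 1000 UMIs, 39 moved beyond their interval, as a change of depth does by construction. Of 12 co-detection values at 1000 UMIs, 8 moved, meaning that the share in cells with the other gene left its interval. Lower depth lowers such shares by construction, so this count does not show whether the co-detection holds. Depth limits day 50 brain most.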
